A study of Zea mays with 18 samples.

Results

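The genes described here are 4 maize genes of xylem maturation, chosen by their identifiers from the 34474 genes in the deposited expression table. They are a pair of secondary wall NAC transcription factors and a pair of xylem cysteine proteinases. The NAC factors are secondary wall NAC transcription factor 7 (Zm00001d045600, SWN7 below) and secondary wall NAC transcription factor 2 (Zm00001d049678, SWN2 below). The proteinases are xylem cysteine proteinase 2 (Zm00001d035689, XCP2 below) and a xylem cysteine proteinase 1-like gene (Zm00001d017834, XCP1-like below). All 4 reached the level required for testing, as did 26792 genes in all. Each name is that of the closest protein listed beside the gene in the authors' table, and it was not checked by sequence.

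The water-conducting cells of the xylem lay down a thick secondary wall of cellulose, xylan and lignin, then die and empty themselves. NAC factors of the secondary wall class stand at the top of this programme and switch on MYB factors and wall enzymes, as known from Arabidopsis. XCP1 and XCP2 of Arabidopsis are papain-like proteases that break down the contents of the dying vessel cell. In a maize stem, vessels mature in the vascular bundles while the internodes elongate.

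Poly-A RNA was sequenced from stems of 3 maize hybrids of different plant height, all with Dan 598 as a parent. The hybrids are high (H, Dan 598xES40), middle (M, Dan 598xCML444) and low (L, Dan 598xFAPW), and each height class is 1 hybrid, so height and genotype cannot be told apart. Each was sampled at jointing, when the stem starts to elongate, at big flare, the late whorl stage, and at tasseling, when the tassel emerges. The 9 groups have 2 libraries each, and the labels do not tell if both come from different plants. The p-values below therefore rest on the spread from library to library, which may be technical.

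Levels are FPKM (a fragment count corrected for transcript length and library size), as deposited by the authors. Between 20758 and 22708 genes per library stood at 1 FPKM or more. The absolute depth is unknown; relative depth, read from the steps of low values, averaged 0.587 at jointing, 0.54 at big flare and 0.861 at tasseling on a scale where the deepest library is 1.0. Secondary wall genes, which a stem holds, were detected in every library. Of 15 genes of wall polysaccharide synthesis, 10 stood above 0 in every library, and the 15 summed to between 520 and 7192 FPKM. For 12 of 18 libraries, the most similar library was the other one of the same group. High jointing replicate 1 was nearest to high big flare replicate 1 and high jointing replicate 2 to high tasseling replicate 2 (r = 0.910 and 0.905 across genes). Low jointing replicate 2 and low big flare replicate 1 were nearest to each other (r = 0.914), and results are given with and without these libraries where that matters.

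The stages of each hybrid were compared to ask how gene activity shifts as the stem matures. All 4 genes had their lowest stage mean at big flare. XCP2, SWN7 and SWN2 fell at big flare relative to jointing, and all 4 genes were higher at tasseling than at big flare. The widest swing was that of XCP2, an abundant transcript at jointing and tasseling that almost vanished at big flare. In whole stems, fewer xylem cells and less RNA per xylem cell cannot be told apart.

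**Figure D1:**
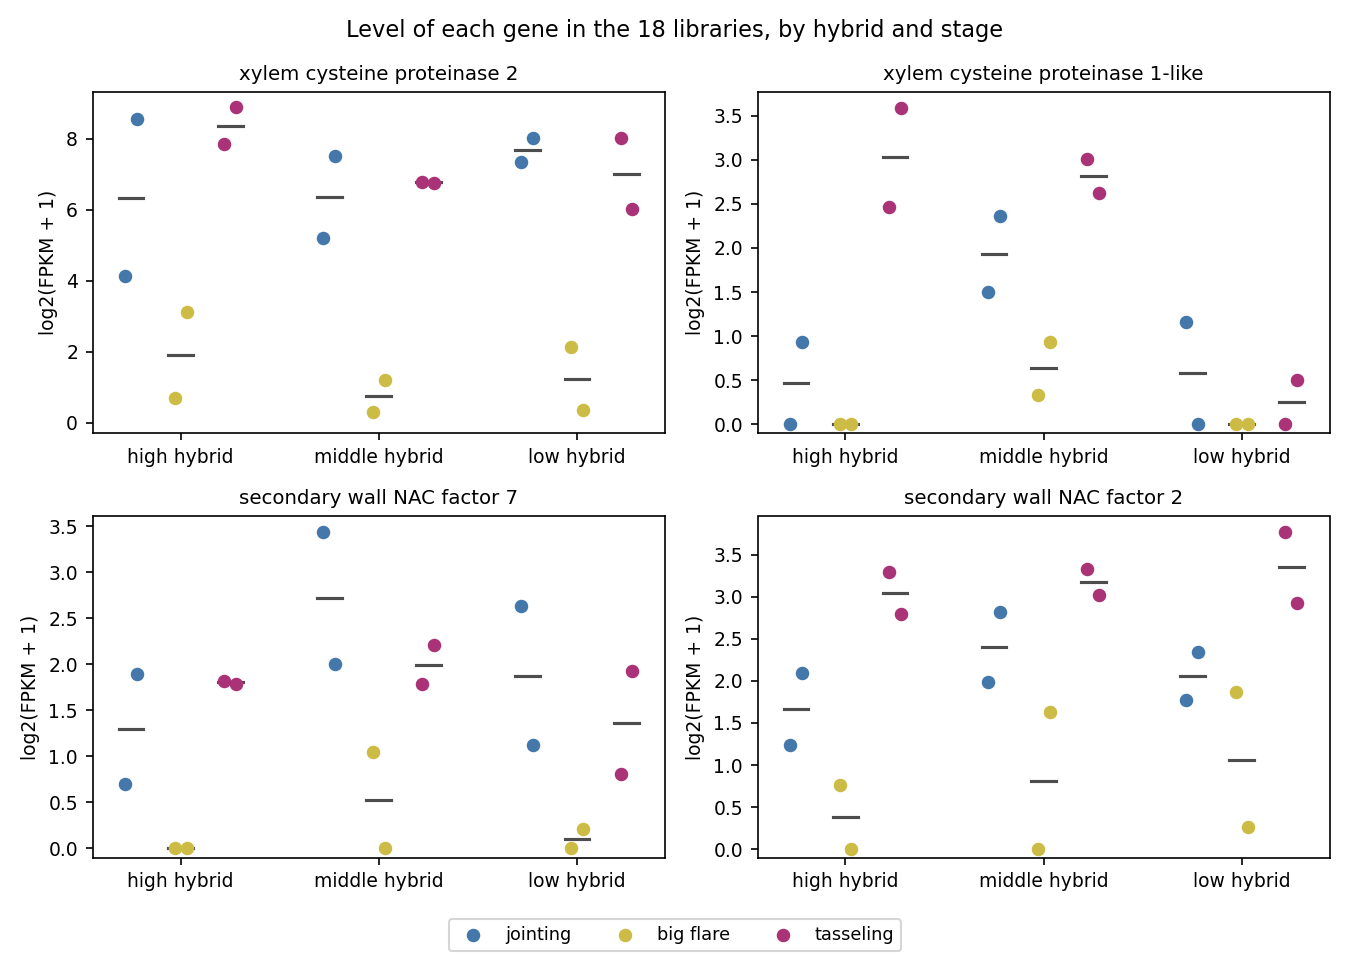
Level of each gene, as log2(FPKM + 1), in the high, middle and low hybrids at jointing, big flare and tasseling. Points are libraries and short lines are means of 2 libraries. XCP2 lies between 0.22 and 7.59 FPKM in the big flare libraries and at 16.4 FPKM or more in all others, while XCP1-like stays at 1.23 FPKM or less in the low hybrid at every stage.

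SWN2 was present at a few FPKM. At jointing it had 1.36 and 3.27 FPKM for the high hybrid, 2.95 and 6.06 in the middle, and 2.42 and 4.08 in the low hybrid. At big flare it had 0.70 FPKM and a listed 0 in the high, a listed 0 and 2.09 in the middle, and 2.65 and 0.20 in the low hybrid. At tasseling it had 8.77 and 5.95 FPKM for the high hybrid, 9.07 and 7.11 in the middle and 12.6 and 6.62 in the low hybrid. Every tasseling library stood above every big flare library, and 5 of the 6 tasseling libraries stood above every jointing library. The share of all genes with such a separation is not given here. Of the big flare libraries, 4 of 6 lay below every jointing library, and the others overlapped them. SWN2 rose by 2.43 ± 0.37 log2 units at tasseling relative to big flare (SE, adjusted p = 0.000283) and by 1.15 ± 0.37 relative to jointing (adjusted p = 0.0332). At big flare it fell by 1.29 ± 0.37 relative to jointing (adjusted p = 0.0396). All changes are given in log2(FPKM + 1), a scale on which genes of low level appear to change less than they did. The rise at tasseling relative to big flare held in all 18 fits that left out 1 library. The fall at big flare did not pass in 10 of those fits (adjusted p up to 0.114). These fits lacked replicate 2 of high jointing, replicate 1 or 2 of high big flare, middle jointing 2, middle big flare 1, middle tasseling 1 or 2, low jointing 1 or 2, or low big flare 2. It also missed the threshold with no filter, after quantile normalization, with a replicate block and on the 12 libraries compared (adjusted p between 0.0512 and 0.0857). The difference of tasseling from jointing did not pass in 7 (adjusted p up to 0.0927): without high jointing 1, high tasseling 1, middle jointing 1, middle tasseling 1 or 2, low jointing 1, or low tasseling 1.

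SWN7 had its highest single value, 9.82 FPKM, in middle jointing replicate 1. At jointing it had 0.63 and 2.72 FPKM for the high hybrid, 9.82 and 3.0 in the middle and 5.19 and 1.18 in the low hybrid. At big flare it was listed at 0 in both high libraries, had 1.07 FPKM and a listed 0 in the middle, and a listed 0 and 0.16 in the low hybrid. At tasseling it had 2.54 and 2.45 FPKM for the high hybrid, 2.45 and 3.63 in the middle and 0.75 and 2.81 in the low hybrid. Only middle big flare replicate 1, at 1.07 FPKM, reached into the range of the jointing and tasseling libraries. SWN7 fell by 1.75 ± 0.36 log2 units at big flare relative to jointing (adjusted p = 0.0104) and rose by 1.51 ± 0.36 at tasseling relative to big flare (adjusted p = 0.00521). Both calls held in all 18 fits that left out 1 library, at -2.01 to -1.503 and 1.33 to 1.70 log2 units. Tasseling and jointing differed by -0.24 log2 units, with a 95% interval from -1.03 to 0.55 (adjusted p = 0.657). The median level of SWN7 was 2.86 FPKM at jointing and 2.495 at tasseling, and that of SWN2 was 3.11 and 7.94 FPKM.

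XCP2 was the most abundant of the 4 genes at jointing and tasseling. At jointing it had 16.4 and 373 FPKM for the high hybrid, 36.1 and 180 in the middle and 162 and 259 in the low hybrid. At big flare it had 0.63 and 7.59 FPKM for the high hybrid, 0.22 and 1.3 in the middle and 3.34 and 0.27 in the low hybrid. At tasseling it had 230 and 471 FPKM for the high hybrid, 110 and 107 in the middle and 257 and 63.2 in the low hybrid. All 6 big flare libraries lay below all other libraries, so neither stage overlapped with big flare. The share of all genes that separated in this way is not given here. In the library with its highest level, high tasseling replicate 2, XCP2 ranked 173 among the 34474 genes, and in middle big flare replicate 1 it ranked 24508. Scaled by relative depth, the 6 big flare values were 1, 1.02, 2.03, 6.05, 14.2 and 30.4 times the smallest. The number of fragments behind the smallest value is unknown.

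XCP2 fell by 5.50 ± 0.74 log2 units at big flare relative to jointing (adjusted p = 0.00141) and rose by 6.09 ± 0.74 at tasseling relative to big flare (adjusted p = 7.45e-05). The exact permutation test of stage labels within hybrids gave p = 0.00926 for both, the smallest that 216 arrangements allow. Tasseling and jointing differed by 0.59 log2 units, with a 95% interval from -1.0 to 2.19 (adjusted p = 0.585). Low jointing replicate 2 and low big flare replicate 1, which resembled each other across genes, had 259 and 3.34 FPKM of XCP2. Without high jointing replicate 1 the fall at big flare was -6.24 log2 units, and without high jointing replicate 2 it was -4.76, the extremes of 18 such fits, and all 18 were past the threshold. The difference of tasseling from jointing was -0.15 without replicate 1 and 1.33 without replicate 2, neither past the threshold.

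XCP1-like stood near the lower limit and was listed at 0 in 7 of 18 libraries. At jointing it had a listed 0 and 0.91 FPKM for the high hybrid, 1.84 and 4.14 in the middle, and 1.23 and a listed 0 in the low hybrid. At big flare it was listed at 0 in both high and both low libraries and had 0.26 and 0.91 FPKM in the middle hybrid. At tasseling it had 4.53 and 11.03 FPKM for the high hybrid, 7.05 and 5.18 in the middle, and a listed 0 and 0.42 in the low hybrid. The 4 tasseling libraries of the high and middle hybrids exceeded every other library, and the 2 of the low hybrid did not. XCP1-like rose by 1.82 ± 0.29 log2 units at tasseling relative to big flare (adjusted p = 0.000428) and by 1.04 ± 0.29 relative to jointing (adjusted p = 0.0185). Big flare differed from jointing by -0.78 ± 0.29 (adjusted p = 0.101). The exact permutation test gave p = 0.0278 for tasseling against big flare and p = 0.111 for tasseling against jointing. The difference of tasseling from jointing also lost its call without low jointing replicate 2, low tasseling replicate 2, middle jointing replicate 1 or high jointing replicate 1 (adjusted p up to 0.0584).

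Read against all genes, big flare minus jointing was the comparison with fewer changes: 12.4% of the 26792 genes tested passed, 7.29% as higher and 5.06% as lower, and 3 of the 4 genes, XCP2, SWN7 and SWN2, were among the lower ones. The call of SWN2 is the one that several alternatives ended. In tasseling minus big flare 41.6% passed, 22.4% as higher, and all 4 genes were among the higher ones. In tasseling minus jointing 29.9% passed, 18.8% as higher, and 2 of the 4 genes, XCP1-like and SWN2, were higher. Both steps, down at big flare and up at tasseling, were passed by 847 genes (3.16%), among them XCP2, SWN7 and SWN2. The 2 steps share the big flare libraries, which ties their signs together. The split of all genes depended on the scaling: at big flare 1954 were higher and 1356 lower than at jointing, and 1415 higher and 1769 lower after median-of-ratios scaling. For tasseling minus jointing the split was 5050 higher and 2965 lower, and 4373 and 3957 after quantile normalization. The 4 genes kept the direction of every stage difference past the threshold under both scalings.

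**Figure D2:**
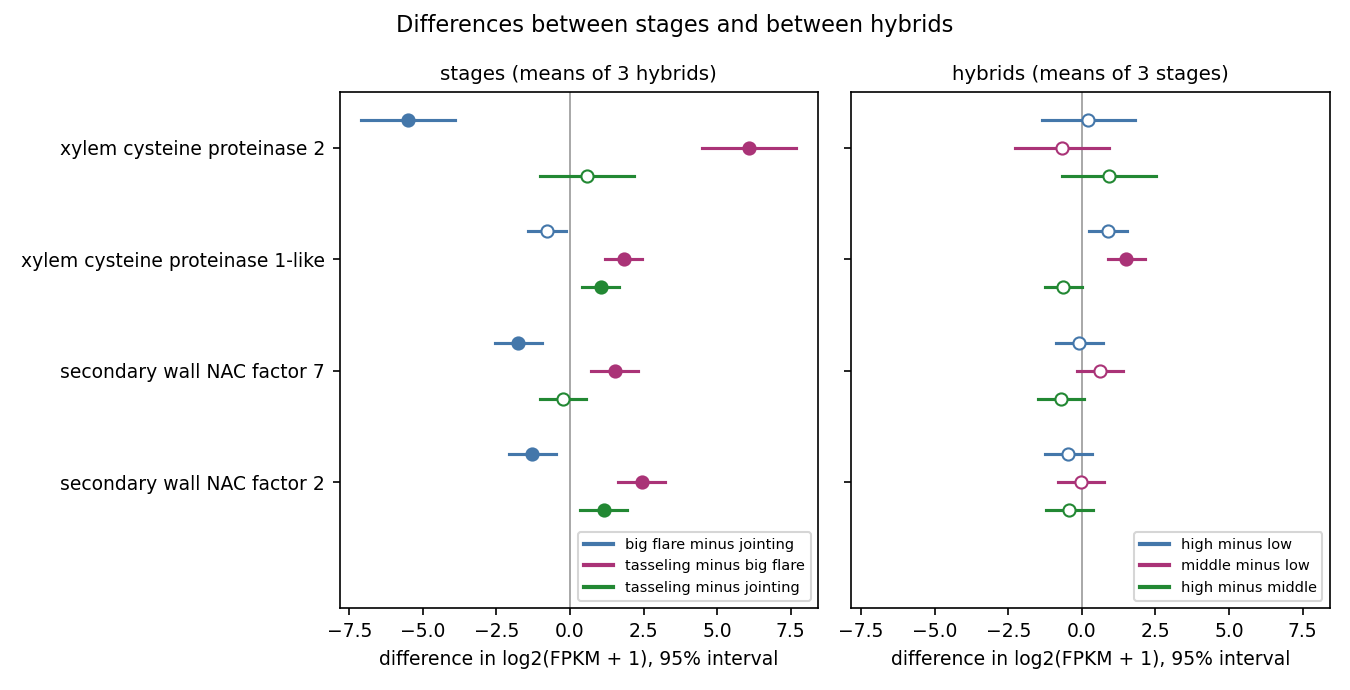
Differences in log2(FPKM + 1) between stages (left) and between hybrids (right) for the 4 genes, with 95% intervals from limma. Filled points passed an adjusted p of 0.05 over the 26792 genes tested. The stage differences of XCP2 reach -5.50 and 6.09 log2 units, and only XCP1-like has a filled point among the hybrids, at 1.52 for middle minus low.

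Within single hybrids, with 2 libraries a side, the rise at tasseling relative to big flare passed for XCP2 in the high (6.46 log2 units, adjusted p = 0.00569), the middle (6.03, 0.0112) and the low hybrid (5.78, 0.019). SWN2 also passed in all 3, by 2.66, 2.36 and 2.28 log2 units. XCP1-like passed in the high (3.03 log2 units, adjusted p = 0.00281) and the middle hybrid (2.18, 0.0156), and in the low hybrid its difference was 0.25 (adjusted p = 0.816). SWN7 differed by 1.81, 1.47 and 1.26 log2 units in the high, middle and low hybrids and passed in none (adjusted p between 0.0602 and 0.22). Of all genes, 19.9%, 14.5% and 10.5% passed in the high, middle and low hybrids. None of the 4 genes passed for big flare minus jointing within a single hybrid, where 0.131%, 0.493% and 0.332% of all genes did. The XCP2 differences there were -4.43, -5.61 and -6.45 log2 units (adjusted p between 0.0566 and 0.164). SWN7 differed by -1.30, -2.19 and -1.77 and SWN2 by -1.28, -1.59 and -0.99 log2 units, so the sign was shared by all 3 hybrids. For tasseling minus jointing, 3.79%, 9.52% and 5.07% of all genes passed in the high, middle and low hybrids, and of the 4 genes only XCP1-like in the high hybrid did (2.56 log2 units, adjusted p = 0.022).

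The hybrids were compared to ask which genes differ with plant height. XCP1-like, a protease gene of the dying vessel cell by its name, was the only one of the 4 genes with a difference past the threshold. Its level in the middle hybrid exceeded that in the low one by 1.52 ± 0.29 log2 units (adjusted p = 0.00618). Middle libraries ranged from 0.26 to 7.05 FPKM, with a median of 2.99, and low libraries ranged from a listed 0 to 1.23 FPKM, with 4 of 6 listed at 0. Of the middle libraries, 4 of 6 exceeded every low library. The call held in all 18 fits that left out 1 library, between 1.33 and 1.71 log2 units, and the exact permutation test gave p = 0.00926, its smallest possible value. A gene with which it could share reads, Zm00001d049109, went the other way in this comparison (-0.84 log2 units), and the part of that in the result was not tested. Of all genes, 6.93% passed in middle minus low, 2.62% as higher and 4.31% as lower.

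XCP1-like was not past the threshold in high minus low (0.89 ± 0.29 log2 units, adjusted p = 0.084), where 9.21% of all genes passed, 3.58% as higher and 5.63% as lower. At tasseling alone it was higher in the high than in the low hybrid by 2.77 ± 0.51 (adjusted p = 0.00711, 5.45% of all genes) and its middle minus low difference was 2.57 ± 0.51 (adjusted p = 0.0156, 2.55% of all genes). At jointing neither difference passed (adjusted p of 0.326 or more), nor at big flare, while 2.34% and 2.91% of all genes passed in high minus low and 1.89% and 2.41% in middle minus low at these stages. High minus middle passed at no stage, where 1.24%, 1.61% and 1.21% of all genes did at jointing, big flare and tasseling. A limma test of whether the stage course of XCP1-like differs between hybrids did not pass (adjusted p = 0.717 over all genes). That test called 15 genes, 0.056% of those tested, and gave an adjusted p of 1 for the other 3 genes. High minus low averaged over stages passed when low jointing replicate 1 or high tasseling replicate 1 was left out (adjusted p down to 0.042).

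For XCP2, SWN7 and SWN2 no hybrid difference passed in the averaged comparisons. XCP2 differed by 0.23 log2 units in high minus low, with a 95% interval from -1.37 to 1.82, by -0.68 in middle minus low and by 0.91 in high minus middle. SWN7 differed by -0.08 in high minus low (-0.87 to 0.70), by 0.63 in middle minus low and by -0.71 in high minus middle. SWN2 differed by -0.46 in high minus low (-1.26 to 0.34), by -0.03 in middle minus low and by -0.43 in high minus middle. The intervals of XCP2 are wide enough to hold differences of more than 1 log2 unit in either direction in high minus low. In high minus middle, 4.44% of all genes passed, 2.37% as higher and 2.07% as lower, and none of the 4 genes did. In all, 24 comparisons of a gene between averaged stages or hybrids were made.

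Ordered by group mean, XCP2 was highest in high tasseling at 351 FPKM, then low jointing at 210, high jointing at 195, low tasseling at 160, and middle tasseling and middle jointing at 108 FPKM each. Each of these neighbours overlapped in range. The only neighbours in the order whose ranges were separate were middle jointing and high big flare, which followed at 4.11 FPKM, before low big flare at 1.80 and middle big flare at 0.76 FPKM. SWN2 ran without a separate pair of neighbours, from 9.60 FPKM in low tasseling down to high big flare. SWN7 also had no separate neighbours, from 6.41 FPKM in middle jointing down to high big flare, listed at 0. For XCP1-like, middle tasseling was separate from middle jointing, and middle jointing from low jointing.

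The spread between the 2 libraries of a group was itself large for XCP2. Its higher library exceeded the lower by 22.8-fold in high jointing, by 12.4-fold in low big flare and by 12.0-fold in high big flare, and by 1.02-fold in middle tasseling. At jointing, replicate 2 had the higher XCP2 level in all 3 hybrids, as it did for SWN2 and for a second gene named XCP2 (Zm00001d011787). Over the 9 groups, this second gene differed between replicates in the same direction as XCP2 in 8, and SWN2 did in 7. SWN7 went the same way as XCP2 in 1 group and the opposite way in 7, with 1 tied. The replicate numbers carry no stated meaning, and these counts are a description.

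**Figure D3:**
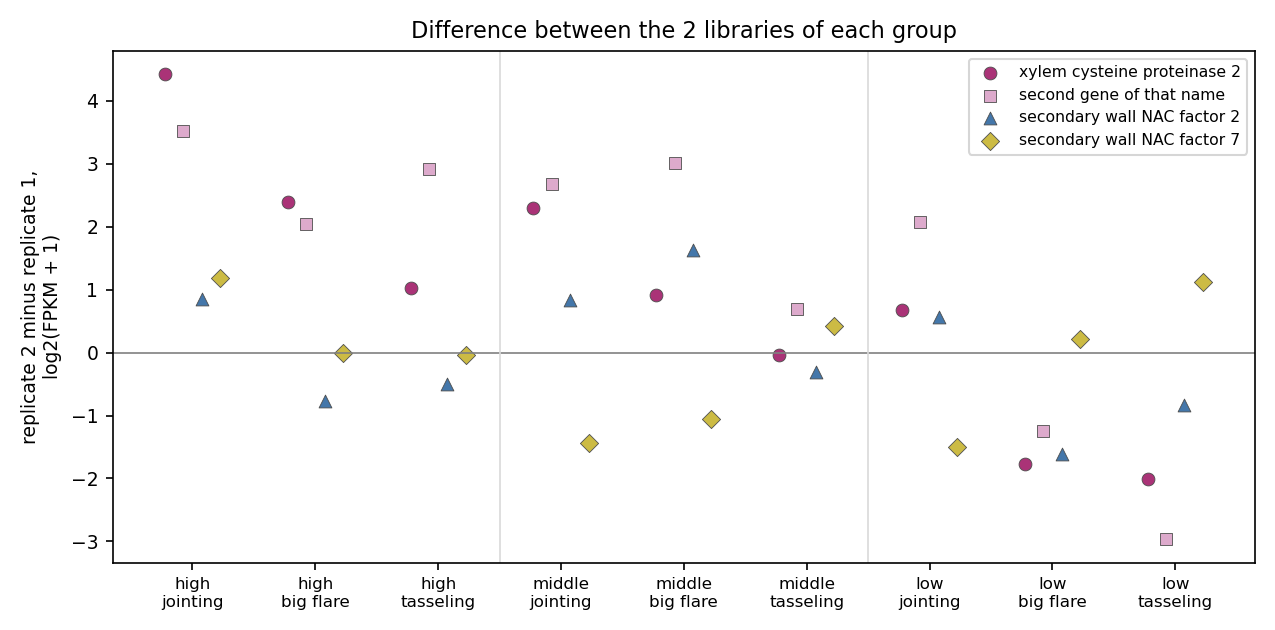
Difference between replicate 2 and replicate 1, in log2(FPKM + 1), for 4 genes in each of the 9 groups. Points above 0 have the higher level in replicate 2. XCP2 and the second gene of that name lie on the same side of 0 in 8 of 9 groups, and XCP2 and SWN7 in 1.

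Across the 18 libraries, log2(FPKM + 1) of XCP2 correlated with SWN2 at r = 0.80, with SWN7 at r = 0.66 and with XCP1-like at r = 0.56. The 2 NAC factors correlated at r = 0.51. Over the 9 group means, XCP2 correlated at 0.85 with SWN2 and at 0.84 with SWN7, and the NAC factors correlated at 0.77. The libraries share stages and depth, so these are descriptions with no test.

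Other genes of the same names did not all follow the 4. The second XCP2 gene, Zm00001d011787, had lowest, median and highest levels of 24.99, 134 and 324 FPKM at jointing, then 2.08, 7.26 and 60.5 at big flare, then 4.87, 44.9 and 403 at tasseling. It fell by 3.05 ± 0.87 log2 units at big flare relative to jointing (adjusted p = 0.0398), and tasseling differed from big flare by 1.85 ± 0.87 (adjusted p = 0.109). At big flare its 6 libraries overlapped with both other stages, where those of XCP2 did not.

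A second gene named XCP1-like, Zm00001d022036, ran the other way. It had lowest, median and highest levels of 1.64, 23.2 and 235 FPKM at jointing, then 17.9, 46.1 and 257 at big flare, then 0.27, 2.11 and 117 at tasseling. It fell by 3.52 ± 1.06 log2 units at tasseling relative to big flare (adjusted p = 0.0184). Its 2 libraries differed by 28.5-fold in low jointing, 36.0-fold in high jointing and 55.3-fold in low tasseling. By orthology it is listed as cathepsin L, whereas XCP1-like and Zm00001d049109 are listed as xylem cysteine proteinase. Zm00001d049109, also named XCP1-like, fell by 1.16 ± 0.22 at tasseling relative to big flare (adjusted p = 0.00116). Its high minus low difference was -0.96 ± 0.22 log2 units (adjusted p = 0.0138), with 5.64 ± 3.07 FPKM in the high and 11.03 ± 4.12 FPKM in the low hybrid (SD, n = 6 each). Its middle minus low difference was -0.84 ± 0.22 (adjusted p = 0.0358), with 5.92 ± 2.78 FPKM in the middle hybrid, opposite in sign to the 1.52 of XCP1-like, which passed in that comparison. Over the 18 libraries log2(FPKM + 1) of these genes correlated at r = -0.84, a description with no test. Its second-best protein match is the protein matched by XCP1-like itself, so reads could be split between these genes and their values are uncertain in this respect. A bromelain-like gene (Zm00001d005381), a protease of the same family, passed in no stage or hybrid comparison.

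Of the other secondary wall NAC factors, number 6 (Zm00001d002828) had 1.69 ± 1.12 FPKM at jointing, was listed at 0 in 4 of 6 big flare libraries and had 0.857 ± 0.807 FPKM at tasseling. It fell by 1.19 ± 0.25 log2 units at big flare relative to jointing (adjusted p = 0.0118) and rose by 0.68 ± 0.25 at tasseling relative to big flare (adjusted p = 0.0481). Number 5 (Zm00001d027459) was listed at 0 in all 6 big flare libraries and reached at most 2.11 FPKM elsewhere, and it passed in no comparison. Number 4 (Zm00001d002934) ranged from a listed 0 to 3.09 FPKM, reached at big flare, and passed in none.

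**Figure D4:**
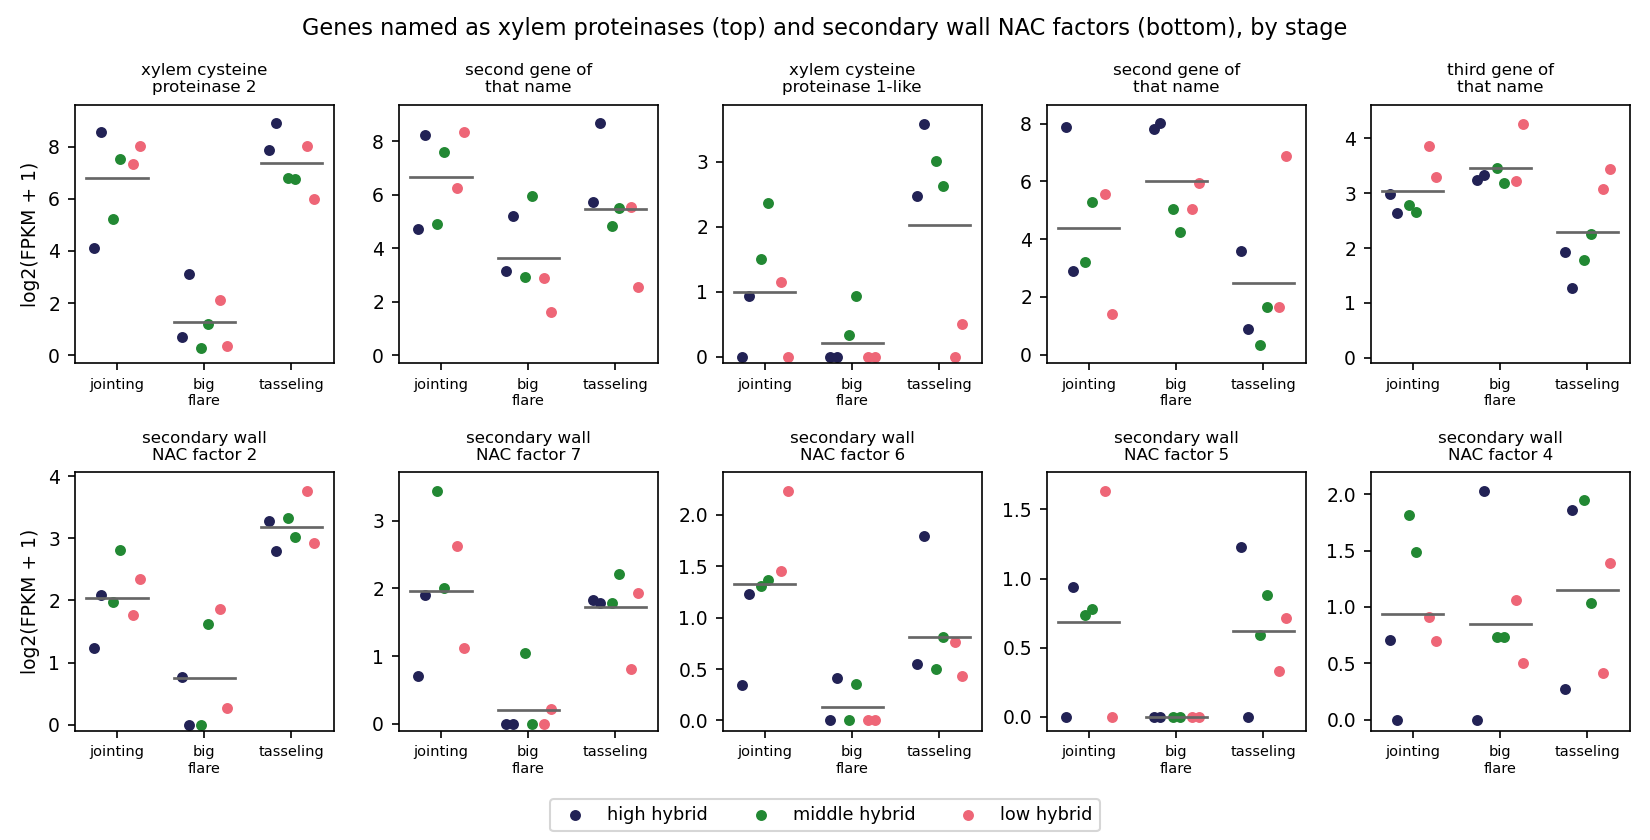
Levels by stage, as log2(FPKM + 1), of 5 genes named as xylem proteinases (top) and 5 named as secondary wall NAC factors (bottom). Points are libraries, coloured by hybrid in the order high, middle and low, and lines are means of 6 libraries. The means of XCP2, the second XCP2 gene, XCP1-like and the 5 NAC factors are lowest at big flare. For NAC factor 4 the difference from jointing is only -0.09 log2 units. The other genes named XCP1-like have their highest means at big flare.

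Among the regulators of this programme, 13 NAC and MYB genes of the secondary wall were tested, SWN7 and SWN2 included. At big flare, 3 of the 13 were lower than at jointing and 0 were higher, with a median change of -0.68 log2 units (0.07 over all genes tested). That is 23.1% lower, against 5.06% of all genes. The 3 lower ones were SWN7, SWN2 and NAC factor 6, so this share counts SWN7 and SWN2 again. At tasseling 6, SWN7 and SWN2 among them, were higher than at big flare and 1 was lower. The median was 0.62 (0.01 over all genes), and 46.2% were higher against 22.4% of all genes. MYB46 (Zm00001d023932), in Arabidopsis a direct target of these NAC factors, had a lowest, median and highest level of 2.81, 7.49 and 32.6 FPKM at jointing, then 0.70, 2.08 and 21.7 at big flare, then 19.0, 54.6 and 107 at tasseling. It rose by 3.59 ± 0.60 log2 units at tasseling relative to big flare (adjusted p = 0.000569) and by 2.35 ± 0.60 relative to jointing (adjusted p = 0.0119). A NAC 43-like gene (Zm00001d035084), named after the Arabidopsis fibre wall regulator NST1, rose by 1.84 ± 0.37 relative to big flare (adjusted p = 0.00182), and a second one (Zm00001d036050) differed by 0.06 ± 0.32. A NAC 73-like gene (Zm00001d011555) differed by 0.50 ± 0.53. MYB42 (Zm00001d053220) was the regulator that fell, by 1.40 ± 0.27 (adjusted p = 0.00129).

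Genes listed as hydrolases of xylem cell death did not move as one group. The list takes in metacaspases and ribonucleases by name, whether or not they act in xylem. Of 19 tested, XCP2 and XCP1-like among them, 4 fell and 1 rose at big flare relative to jointing, and 6 fell and 3 rose at tasseling relative to big flare (medians -0.18 and -0.28 log2 units, against 0.07 and 0.01 over all genes). The shares were 21.1% lower at big flare, against 5.06% of all genes, and 31.6% lower and 15.8% higher at tasseling, against 19.2% and 22.4%. XCP2 and the second XCP2 gene were among the 4 that fell at big flare. The 3 that rose at tasseling were XCP2, XCP1-like and a metacaspase (Zm00001d047211, 1.15 ± 0.22, adjusted p = 0.00131). Metacaspases are proteases linked to programmed cell death in plants. A more abundant metacaspase, Zm00001d029387, averaged 348 ± 272 FPKM at jointing, 138 ± 68.1 at big flare and 11.2 ± 9.0 at tasseling (SD, n = 6 each). It fell by 3.74 ± 0.74 log2 units at tasseling relative to big flare (adjusted p = 0.00158). Another one, Zm00001d043195, fell by 0.63 ± 0.18 (adjusted p = 0.0127).

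Among 11 genes of wall polysaccharides, 1 was lower at big flare than at jointing and 0 were higher, with a median of -0.86 log2 units, and 4 were higher at tasseling than at big flare and 0 lower, with a median of 0.87. The shares were 9.09% lower in the first step, against 5.06% of all genes, and 36.4% higher in the second, against 22.4%. The gene that passed in both steps was brittle stalk-2-like 7 (Zm00001d022082), of the COBRA-like family that orders cellulose in the wall. It had lowest, median and highest levels of 3.87, 32.2 and 67.3 FPKM at jointing, then 0.17, 1.77 and 8.51 at big flare, then 8.82, 42.8 and 208 at tasseling. Brittle stalk-2-like 3 (Zm00001d034049) rose by 1.40 ± 0.26 at tasseling relative to big flare (adjusted p = 0.000967). Brittle stalk 2 itself (Zm00001d047276), cellulose synthase 11 (Zm00001d043477) and a fasciclin-like arabinogalactan protein 11 gene (Zm00001d010832) differed by -0.64 ± 0.57, 0.47 ± 0.60 and 0.95 ± 0.62 in that comparison and passed in none.

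Lignin genes passed in shares near those of all genes where they were higher. Of 45 tested, 5 fell and 3 rose at big flare relative to jointing, and 12 rose and 3 fell at tasseling relative to big flare (medians -0.24 and 0.33). At big flare 6.67% were higher and 11.1% lower, against 7.29% and 5.06% of all genes, and at tasseling 26.7% were higher and 6.67% lower, against 22.4% and 19.2%. Phenylalanine ammonia-lyase Zm00001d051161, the entry enzyme of the pathway, fell by 1.36 ± 0.48 at tasseling relative to big flare (adjusted p = 0.0379). A cinnamyl alcohol dehydrogenase family gene (Zm00001d020402), of the last step to the lignin alcohols, fell by 0.91 ± 0.21 at big flare relative to jointing (adjusted p = 0.0172) and rose by 0.91 ± 0.21 at tasseling relative to big flare (adjusted p = 0.00446). Caffeoyl-CoA O-methyltransferase 1 (Zm00001d052841) differed by -1.67 ± 0.54 and 1.36 ± 0.54 in these steps (adjusted p = 0.0616 and 0.0607). Brown midrib 1 (Zm00001d015618), also a cinnamyl alcohol dehydrogenase, differed by 0.24 ± 0.34 and -0.52 ± 0.34.

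Of 7 genes of vascular patterning, 0 passed at big flare relative to jointing, where 12.4% of all genes did. At tasseling 3 rose relative to big flare, 42.9% against 22.4% of all genes. The 2 rolled leaf 2 genes, HD-ZIP III factors that pattern leaves and vascular bundles, rose by 0.73 ± 0.16 (Zm00001d048527, adjusted p = 0.0036) and by 0.55 ± 0.14 (Zm00001d027317, adjusted p = 0.00671). A vascular plant one zinc finger gene (Zm00001d012734) and milkweed pod 1 (Zm00001d020384) differed by -0.36 ± 0.21 and 0.33 ± 0.42. Several of these counts moved when 1 library was left out. For big flare relative to jointing, the lower regulators numbered 2 to 4, the lower hydrolases 1 to 4, the lower polysaccharide genes 0 to 5 and the lower lignin genes 0 to 11. The hydrolase count was 1 without middle big flare 1 or high big flare 2, and 2 without high jointing 1, high big flare 1, middle jointing 2, middle tasseling 1 or 2, low jointing 1 or low big flare 2. The polysaccharide count was 0 without middle jointing 2, middle big flare 1 or low big flare 2, 2 without high big flare 1 and 5 without low big flare 1. The lignin count was 0 without low big flare 2 or middle jointing 2 and 11 without low big flare 1, and it stayed within 1.5 times of 5 only without high big flare 1, high tasseling 1 or 2, or middle big flare 2. Without low big flare 1, 2 patterning genes were higher at big flare. For tasseling relative to big flare, the higher regulators numbered 5 or 6, the higher hydrolases 3, the higher polysaccharide genes 3 to 6 and the higher lignin genes 8 to 15. The lignin genes that were lower numbered 6 without high big flare 2 and 5 without high tasseling 2.

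**Figure D5:**
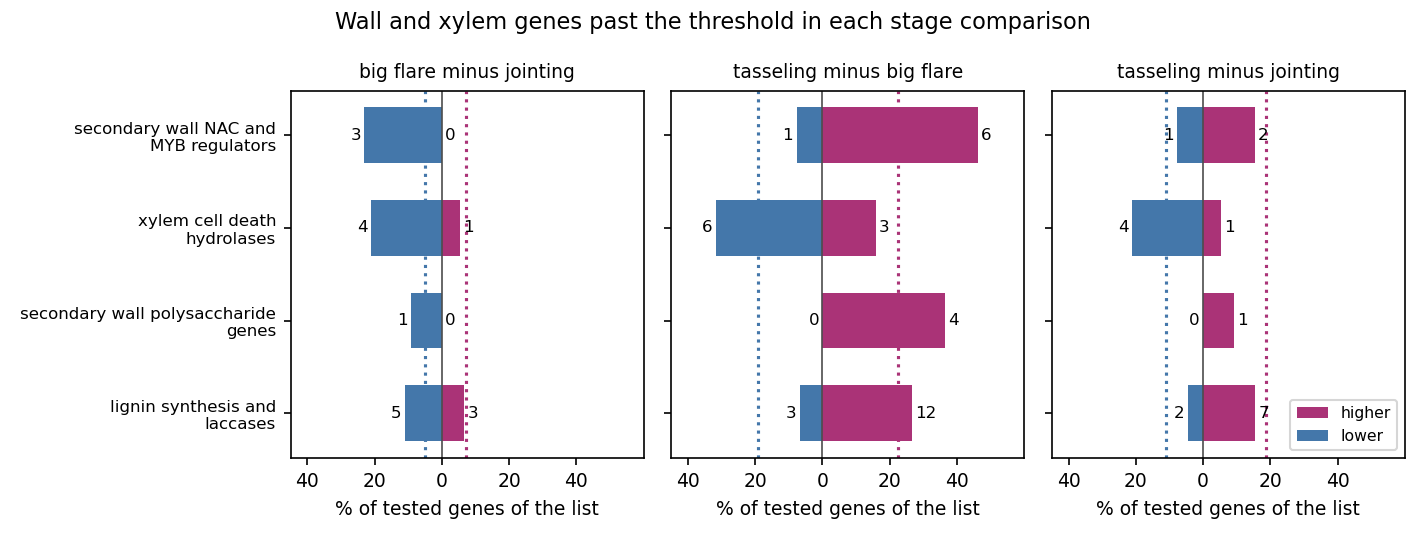
Share of the tested genes of 4 lists that passed in each stage comparison, higher to the right and lower to the left of 0, with the number of genes beside each bar. Dotted lines are the shares of all genes tested. Of the regulators, 6 of 13, SWN7 and SWN2 among them, are higher at tasseling than at big flare, and 6 of 19 hydrolases are lower.

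Outside the xylem names, other members of both families gave a mixed picture. Of 7 other papain-like proteases, 2 rose and 0 fell at big flare relative to jointing, and 2 rose and 3 fell at tasseling relative to big flare. The shares were 28.6% higher at big flare, against 7.29% of all genes, and 28.6% higher and 42.9% lower at tasseling, against 22.4% and 19.2%. The 2 that rose at tasseling became 1 without replicate 1 of high big flare, high tasseling, middle big flare, middle tasseling or low tasseling, or without low big flare 2. The most abundant of them, vignain (Zm00001d031971), a KDEL-tailed protease of dying tissues, averaged 48.4 ± 74.1 FPKM at jointing, 567 ± 447 at big flare and 73.6 ± 112 at tasseling (SD, n = 6 each). It rose by 3.99 ± 0.58 log2 units at big flare relative to jointing (adjusted p = 0.00207) and fell by 3.55 ± 0.58 at tasseling relative to big flare (adjusted p = 0.000457). Cysteine protease 1 (Zm00001d026458) rose by 1.00 ± 0.21 at big flare relative to jointing (adjusted p = 0.0111). Of 59 other NAC factors, 11 rose and 1 fell at big flare relative to jointing, and 10 rose and 12 fell at tasseling relative to big flare. These are 18.6% and 1.69% at big flare, against 7.29% and 5.06% of all genes, and 16.9% and 20.3% at tasseling, near the 22.4% and 19.2% of all genes. The 11 became 5 without middle jointing 2 or middle big flare 1 and 6 without low big flare 2, and the 1 became 4 without high jointing 2. Their most abundant members, a NAC 55-like gene (Zm00001d010227) and Zm00001d002945, differed by 0.25 ± 0.19 and rose by 0.47 ± 0.12 (adjusted p = 0.0285) at big flare relative to jointing.

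Gene by gene, the course closest to that of XCP2 over the 18 libraries was that of an osmotin-like gene (Zm00001d041553, r = 0.95), then brittle stalk-2-like 7 (r = 0.93), aquaporins PIP2-2-like (Zm00001d019563, r = 0.92) and PIP2-2 (Zm00001d005421, r = 0.91), which are water channels, and a pyruvate dehydrogenase E1 subunit gene (Zm00001d000227, r = 0.90). The osmotin-like gene had lowest, median and highest levels of 4.72, 25.4 and 53.0 FPKM at jointing, then a listed 0, 1.505 and 4.73 at big flare, then 15.7, 31.1 and 53.0 at tasseling. Closest to SWN2 were allene oxide synthase 1 (Zm00001d013185, r = 0.95), of jasmonate synthesis, and a pectinesterase (Zm00001d040650), an enolase (Zm00001d020309), an O-glycosyl hydrolase (Zm00001d026415) and peroxidase 68 (Zm00001d008898), each at r = 0.94. SWN7 had looser neighbours, an inositol-3-phosphate synthase (Zm00001d028180, r = 0.78), a protein kinase (Zm00001d041514, r = 0.78), a BPE-like factor (Zm00001d047216, r = 0.77), an NPH3 family gene (Zm00001d013183, r = 0.76) and expansin-B7 (Zm00001d027283, r = 0.75). Closest to XCP1-like were a WRKY gene (Zm00001d038761, r = 0.88), a hydrolase (Zm00001d044111, r = 0.87), a pentatricopeptide repeat gene (Zm00001d010031, r = 0.86), DENND6B (Zm00001d028493, r = 0.85) and a laccase (Zm00001d043019, r = 0.84). Laccases polymerise lignin, and this one averaged 10.4 ± 9.36 FPKM at jointing, 2.90 ± 2.30 at big flare and 84.8 ± 108 at tasseling (SD, n = 6 each). These genes were picked for their likeness, which says nothing of shared function.

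Markers of other cell types and tissues were counted in the same way. None of the genes in the marker lists was at 0 in every library, which held for all the other lists too. Above 0 in every library were 6 of 10 dividing cell markers, 3 of 3 phloem markers and 47 of 56 green tissue markers. The same was true of 10 of 49 MADS genes and 51 of 79 heat shock genes. The 10 dividing cell markers summed to 16.7 to 35.8 FPKM at jointing, 15.1 to 32.3 at big flare and 30.5 to 91.5 at tasseling. Of the 9 tested, 4 rose and 1 fell at tasseling relative to big flare, 44.4% and 11.1% against 22.4% and 19.2% of all genes. The 3 phloem markers summed to 172 to 493 FPKM at jointing, 211 to 430 at big flare and 84.6 to 296 at tasseling, ranges that overlap. Most of that sum is sucrose transporter 1 (Zm00001d027854), which fell by 1.16 ± 0.38 log2 units at tasseling relative to big flare (adjusted p = 0.0265). Callose synthase 7-like (Zm00001d044566) rose by 2.84 ± 0.37 in that comparison (adjusted p = 0.000119) and by 1.85 ± 0.37 relative to jointing (adjusted p = 0.00313). A SUT1-like gene (Zm00001d048311) differed by 0.80 ± 0.48 and 0.79 ± 0.48 and did not pass. No phloem marker passed at big flare relative to jointing, where 12.4% of all genes did. The 56 green tissue markers summed to 6557 to 17924 FPKM at jointing, 4816 to 11429 at big flare and 5516 to 10374 at tasseling, ranges that overlap. Of the 53 tested, 4 fell at big flare relative to jointing, 7.55% against 5.06% of all genes. At tasseling 6 rose and 8 fell relative to big flare, 11.3% and 15.1% against 22.4% and 19.2% of all genes. Relative to jointing 15 fell at tasseling, 28.3% against 11.1% of all genes. The 49 genes with MADS in their names summed to 287 to 451 FPKM at jointing, 481 to 697 at big flare and 272 to 455 at tasseling. The name alone does not single out genes of floral tissue. Of the 24 tested, 10 rose and 1 fell at big flare relative to jointing, 41.7% and 4.17% against 7.29% and 5.06% of all genes. At tasseling 4 rose and 7 fell relative to big flare, 16.7% and 29.2% against 22.4% and 19.2% of all genes. The 79 heat shock genes summed to 8459 to 13574 FPKM at jointing, 7211 to 12451 at big flare and 3807 to 5965 at tasseling. Of the 72 tested, 6 rose and 19 fell at big flare relative to jointing, 8.33% and 26.4% against 7.29% and 5.06% of all genes. At tasseling 10 rose and 21 fell relative to big flare, 13.9% and 29.2% against 22.4% and 19.2% of all genes. Relative to jointing 6 rose and 31 fell at tasseling, 8.33% and 43.1% against 18.8% and 11.1% of all genes. The part of these marker genes in the stage course of the 4 genes was not tested, nor was that of the deeper tasseling libraries.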

How the data were processed

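Expression was measured by paired-end sequencing of poly-A RNA from 18 maize stem libraries. The FPKM values are as deposited by the authors, 1 column per library. The submitters' processing notes name TopHat2, Cufflinks 2.2.1, Cuffdiff, DESeq 1.28.0 and the genome build B73 RefGen_v4, with no role given. The table holds no counts, so depth was only compared between libraries, from the steps of values up to 0.5 FPKM.

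Values were taken as log2(FPKM + 1), and genes at 1 FPKM or more in at least 2 libraries were kept (26792 of 34474). limma 3.58.1 in R 4.3.3 was fitted to all 18 libraries with a mean for each of the 9 groups, a trended moderated variance and 9 residual degrees of freedom. p-values were Benjamini-Hochberg adjusted over all genes tested, with a threshold of 0.05. Differences are later minus earlier stage, averaged over hybrids, and high or middle minus low, averaged over stages. An exact permutation test of the labels within hybrids or stages was run for single genes. The fit was also run on simulated data, and the outcome is not reported here. Tables and plots were made in Python 3.11.15.

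Genes named beside the 4 are the 5 with the highest Pearson r to each (mean of at least 5 FPKM, informative name), and the most abundant tested genes of each list, 4 per pathway list and 2 per family list. Genes of the same names as the 4 are all given, and members of a list that are named because they passed the test were chosen after their values were seen. Lists are patterns in the deposited protein names, and 3 words that exclude 6 genes of other families were added once the names had been seen. The 4 genes and the lists were chosen with earlier results of these data known. Alternatives were another pseudocount, no filter, other scalings, a replicate block, a fit on the libraries compared and leaving out each library. Sequences and coordinates were not used here.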

Additional observations from a re-analysis of the deposited data

How the results depend on the processing

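No difference of the 4 genes past the threshold changed sign under any alternative run. XCP2 and SWN7 kept their calls in both steps under every alternative. The calls of SWN2 for big flare minus jointing and of SWN2 and XCP1-like for tasseling minus jointing did not, and the cause was not tested. SWN2 for big flare minus jointing was -1.29 log2 units with no filter (adjusted p = 0.0582) and on the 12 libraries compared (0.0857), and -1.23 after quantile normalization (0.0512). SWN2 for tasseling minus jointing was 1.38 with a pseudocount of 0.1 (0.222), 1.15 with no filter (0.05) and 1.05 after median-of-ratios scaling (0.0517). XCP1-like for tasseling minus jointing was 1.64 with a pseudocount of 0.1 (0.131) and 1.04 in the exact permutation test (p = 0.111). With 1 library left out, SWN2 ranged from -1.56 to -1.02 for big flare minus jointing and from 1.00 to 1.29 for tasseling minus jointing. XCP1-like ranged from 0.85 to 1.23 for tasseling minus jointing and from 0.69 to 1.081 for high minus low. No consistent pairing by replicate number was seen: deviations from group means correlated between -0.43 and 0.29 over 36 pairs of groups, 8 of them over 0.1. With 2 libraries a group, this cannot tell if some libraries of the same number were handled together. With a replicate block, SWN2 for big flare minus jointing was -1.29 (adjusted p = 0.0525). The counts of list genes without 1 library were an alternative chosen after seeing the data. The unknown depth limits what values near 0 show.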

Other observations

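Between hybrids, some protease and lignin genes differed where XCP2 and the NAC factors did not pass the test; they are named after their values were seen. Cysteine proteinase 2 (Zm00001d005828), a papain-like protease, was higher in the high than in the low hybrid by 2.00 ± 0.13 log2 units (adjusted p = 4.94e-07) and its middle minus low difference was 1.98 ± 0.13 (adjusted p = 6.87e-07). A ribonuclease 3-like gene (Zm00001d006134), at a mean of 0.797 FPKM, was higher in the high than in the low hybrid by 1.22 ± 0.23 (adjusted p = 0.0045). In high minus low, 1 of 19 hydrolases was higher and 1 lower, 5.26% each, against 3.58% and 5.63% of all genes. Of 7 other papain-like proteases, 1 was higher there and 0 lower, 14.3% and 0%. In middle minus low 2 of these were higher and 0 lower, 28.6% and 0% against 2.62% and 4.31% of all genes. Of the 45 lignin genes tested, 4 were higher and 1 lower in the high than in the low hybrid, 8.89% and 2.22% against 3.58% and 5.63% of all genes. The lower one was a cinnamoyl-CoA reductase 1-like gene (Zm00001d036609, -1.40 ± 0.32, adjusted p = 0.0145). Among the higher ones were caffeoyl-CoA O-methyltransferase 1 (Zm00001d052842, 2.30 ± 0.40, adjusted p = 0.00222) and phenylalanine ammonia-lyase (Zm00001d051161, 2.196 ± 0.48, adjusted p = 0.0113). Phenylalanine ammonia-lyase also passed in middle minus low, by 1.87 ± 0.48 (adjusted p = 0.0341). Of the 45 lignin genes, 1 was higher there, 2.22% against 2.62% of all genes.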
